A study of Mus musculus with 8 samples.

Results

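Neutrophils store antimicrobial proteins and proteases in granules that are filled in sequence as the cells mature. Primary granules form first, specific (secondary) granules follow and gelatinase (tertiary) granules come last. Specific granules are known for lactoferrin, cathelicidin and lipocalin 2, and gelatinase granules for the matrix metalloproteinase MMP9, and the transcription factor C/EBP-epsilon is needed for many of the specific granule genes. 10 genes of these 2 granule classes, of 54749 genes in the annotation, are described here: Ltf, Camp, Ngp, Lcn2, Olfm4, Abca13, Chil3, Mmp8, Mmp9 and Cd177. They were taken by symbol as specific or gelatinase granule genes, with Olfm4 and Abca13 included. All 10 passed the filter on low counts, which left 21902 genes. The list was drawn up with the difference between genotypes in these libraries already known, so that difference is described below without p-values, and counts of these genes past a threshold stand beside the share of all genes and support nothing.

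RNA from long-term hematopoietic stem cells (LT-HSCs) was sequenced in 4 asrij floxed mice, numbered 1, 3, 4 and 5, and in 4 asrij KO mice, numbered 2, 3, 4 and 5, with 1 library per mouse. Floxed mice are homozygous for the floxed allele and served as controls, and KO mice lack asrij in the whole body, so blood cells and their surroundings are both without it. The labels give all 8 mice an age of 6 months and bone marrow as the tissue, and mice of both sexes were used in the study. For these libraries the methods give the gate as Lin- c-Kit+ Sca1+ CD150+ CD48+, although CD48- is given for LT-HSCs elsewhere in the same methods. The asrij gene, Ociad1, encodes a protein of mitochondria and endosomes. Ociad1 was lower in KO libraries by edgeR's quasi-likelihood test (log2 fold change -1.58 with a standard error of 0.27, adjusted p = 0.0249). The counts on genes summed to 23412829 to 44874882 per library.

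The label of the sorted cells was set against marker genes. Of 12 stem cell markers, 7 had at least 1 CPM (read counts scaled to a common library size with edgeR's TMM method) in all 8 libraries, while Procr and Hoxb5 were under 1 CPM in every library. All 9 neutrophil markers had at least 1 CPM in every library, with a median over markers of 537 CPM per kilobase of spliced transcript in floxed and 352 in KO libraries. The same median over the stem cell markers was 1.28 in floxed and 1.89 in KO libraries. Neutrophil marker transcripts thus far exceeded those of stem cell markers. LT-HSC is the name of the sorted sample, and these levels do not bear it out as the source of the transcripts below. The floxed replicate 3 library stood apart from the other floxed libraries in many of the genes below, and results that rest on it are given with and without it.

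Promoter sequences are shown for the pair of genes with the largest difference between genotypes, Olfm4 and Abca13, beside 3 granule genes with smaller differences and a C/EBP core in the promoter, Ltf, Ngp and Mmp8. They come from RefSeq (GRCm38.p6), which gave a promoter for 9 of the 10 genes, and are written 5′ to 3′ on the strand of the gene. Each is the 250 bases before the RefSeq start, cut short where an annotated exon of the gene lies within them, and the Olfm4 stretch lies inside the span of Olfm4-202, which starts upstream. Capitals mark matches to TTGCNNAA or, on the other strand, TTNNGCAA. The Olfm4 stretch is chr14:80000052-80000250, the Abca13 stretch chr11:9191692-9191941, the Ltf stretch chr9:111019042-111019270, the Ngp stretch chr9:110419558-110419746 and the Mmp8 stretch chr9:7558179-7558428, all on the plus strand.
Olfm4: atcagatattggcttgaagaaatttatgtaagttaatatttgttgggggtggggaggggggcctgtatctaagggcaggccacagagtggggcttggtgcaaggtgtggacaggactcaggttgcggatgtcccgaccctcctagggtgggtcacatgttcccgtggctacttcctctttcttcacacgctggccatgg
Abca13: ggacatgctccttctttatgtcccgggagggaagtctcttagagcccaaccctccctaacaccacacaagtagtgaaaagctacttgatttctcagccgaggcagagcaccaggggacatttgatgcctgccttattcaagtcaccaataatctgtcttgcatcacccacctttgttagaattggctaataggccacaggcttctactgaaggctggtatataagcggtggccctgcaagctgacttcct
Ltf: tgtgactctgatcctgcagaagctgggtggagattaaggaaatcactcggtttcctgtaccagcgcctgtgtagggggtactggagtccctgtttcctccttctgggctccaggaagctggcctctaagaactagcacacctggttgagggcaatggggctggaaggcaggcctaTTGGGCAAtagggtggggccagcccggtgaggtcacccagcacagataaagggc
Ngp: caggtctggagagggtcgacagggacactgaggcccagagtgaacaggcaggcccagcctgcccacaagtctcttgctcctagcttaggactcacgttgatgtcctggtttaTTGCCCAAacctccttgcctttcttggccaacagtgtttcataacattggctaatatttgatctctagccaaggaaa
Mmp8: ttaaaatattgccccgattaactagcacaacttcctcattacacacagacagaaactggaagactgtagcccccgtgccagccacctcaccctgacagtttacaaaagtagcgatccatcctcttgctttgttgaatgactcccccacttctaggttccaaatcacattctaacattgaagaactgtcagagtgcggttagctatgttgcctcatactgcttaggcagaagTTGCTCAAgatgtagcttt

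In the 250 bases before the RefSeq start, the C/EBP core was found in 4 of the 9 genes, Ltf, Ngp, Lcn2 and Mmp8, and it was found in 9.56% of the 32851 promoters searched. Ngp held it at 2 places, the first base lying 138 and 11 bases before the start, the latter beyond the end of the stretch shown. The Ltf match lay 75 bases, the Lcn2 match 216 bases and the Mmp8 match 19 bases before the start. The promoters of Olfm4 and Abca13 held no match to these letters. Neither did those of Camp, Chil3 and Cd177, whose differences between genotypes were smaller. The PU.1 core GAGGAAG, searched on both strands, was in 3 of the 9, Lcn2, Olfm4 and Mmp8, and in 10.6% of all promoters. The GATA core AGATAA, searched in the same way, was in Ltf and Chil3, and in 9.99% of all promoters. Camp, Abca13 and Cd177 held none of the 3 motifs. None of these matches overlapped another one, and a match is a description of the sequence only.

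The estimate was lower in KO than in floxed libraries for 9 of the 10 granule genes. The median log2 fold change was -0.62, against -0.01 over all genes tested. Olfm4 and Abca13 had the largest differences, 81.9% and 70.6% lower in KO, and for the other 8 the 4 floxed and 4 KO values overlapped. Olfm4 and Abca13 were also the 2 of 10 that passed both thresholds of the study's methods, 1.5 for the absolute log2 fold change and 0.05 for the adjusted p-value. Of all genes tested, 1.19% passed both in either direction, 0.74% lower and 0.452% higher in KO. All 4 KO libraries were below all floxed libraries in 7.66% of the genes tested, and above them in 7.1%. Because the list was chosen on this contrast, nothing is read from these counts. In sorted bulk RNA, fewer cells that carry a transcript and less of it in each cell cannot be told apart.

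Lactoferrin, encoded by Ltf, is an iron-binding protein that defines specific granules. Ltf (ENSMUSG00000032496) lies on chromosome 9 (GRCm38, plus strand) from 111019271 to 111042767. Floxed replicates 1, 3, 4 and 5 had 5611, 2214, 6103 and 6033 CPM, while KO replicates 2, 3, 4 and 5 had 3626, 3547, 3655 and 3491 CPM. The KO libraries were close to each other and lay below floxed replicates 1, 4 and 5 but above floxed replicate 3. The floxed mean was 4990 ± 1864 CPM and the KO mean 3580 ± 74.8 CPM (SD, n = 4 each), which gave a log2 fold change of -0.48 with a standard error (SE) of 0.33.

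Camp encodes the precursor of the mouse cathelicidin, an antimicrobial peptide that is cut free after release. Camp (ENSMUSG00000038357) lies on chromosome 9 (minus strand) from 109847379 to 109849617. In the same order of libraries, it had 1547, 593.8, 1913 and 1788 CPM in floxed and 1882, 1509, 1364 and 1200 CPM in KO mice. It was the gene of the 10 with no lower estimate in KO, since its means of 1461 ± 597 CPM and 1488 ± 291 CPM (SD, n = 4 each) gave a log2 fold change of 0.03 (SE 0.35). This sign was not stable, as the estimate was -0.22 without floxed replicate 3 and -0.11 when library totals were used without scaling.

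Ngp, the neutrophilic granule protein, is related to cystatins and cathelicidins. Ngp (ENSMUSG00000032484) lies on chromosome 9 (plus strand) from 110419747 to 110423012, so that Camp, Ngp and Ltf lie in that order on this chromosome. The floxed libraries had 13037, 3437, 18427 and 16203 CPM and the KO libraries 7757, 7682, 8860 and 8519 CPM. Floxed replicate 3 was again below all KO libraries, the other floxed libraries were above all of them, and the floxed values spread 5.36-fold, the widest range of the 10 genes. The floxed mean was 12776 ± 6607 and the KO mean 8204 ± 578 CPM (SD, n = 4 each), with a log2 fold change of -0.64 (SE 0.46).

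Lipocalin 2, encoded by Lcn2, binds bacterial siderophores and so keeps iron from bacteria. Lcn2 (ENSMUSG00000026822) lies on chromosome 2 (minus strand) from 32384633 to 32388252. Its values were 3230, 936.0, 3856 and 3457 CPM in floxed and 1882, 1702, 1614 and 1576 CPM in KO libraries. They show the same order, with floxed replicate 3 lowest of the 8 and the other 3 floxed libraries highest. The floxed mean was 2870 ± 1315 and the KO mean 1693 ± 136 CPM (SD, n = 4 each), with a log2 fold change of -0.76 (SE 0.39).

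Olfactomedin 4, encoded by Olfm4, is a secreted glycoprotein of specific granules that is present in a subset of neutrophils. Olfm4 (ENSMUSG00000022026) lies on chromosome 14 (plus strand) from 79984081 to 80023139. The floxed libraries had 264.9, 163.0, 210.3 and 198.1 CPM and the KO libraries 37.98, 48.55, 32.68 and 32.21 CPM, from 4945 to 10045 reads in floxed and 889 to 1867 in KO libraries. All KO values lay far below all 4 floxed values, floxed replicate 3 included. The means of 209.1 ± 42.3 CPM and 37.9 ± 7.60 CPM (SD, n = 4 each) gave a log2 fold change of -2.46 (SE 0.21), and 105 of the genes tested had a lower one. Over the fits without 1 library the estimate stayed between -2.60 and -2.31 and passed both thresholds in 8 of 8 fits. Of all genes tested in these fits, from 51 of 22264 (without floxed replicate 1) to 857 of 22094 (without floxed replicate 3) passed both. As the gene was chosen on this contrast, these counts too are a description. A replicate block could be fitted in the 6 libraries numbered 3, 4 and 5 alone, without floxed replicate 1 and KO replicate 2. There Olfm4 was -2.33 and passed both, as 0.204% of the genes did, and in the same 6 libraries without the block it was -2.32 and passed both, as 0.106% did. With a block for replicate numbers 4 and 5 against 1 to 3, Olfm4 (-2.48) and Abca13 (-1.68) passed both, as 2.38% of all genes did. The noncoding gene Gm6999 overlaps Olfm4 on the same strand, with 2090 reads over the 8 libraries, 6.16% of the 33938 on Olfm4.

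Abca13 encodes a very large transporter of the ATP-binding cassette family. Abca13 (ENSMUSG00000004668) lies on chromosome 11 (plus strand) from 9191942 to 9684259, with 62 exons. Its values were 139.9, 119.0, 54.13 and 61.16 CPM in floxed and 30.01, 34.64, 24.20 and 21.16 CPM in KO libraries. The groups did not overlap, but floxed replicates 1 and 3 were well above floxed replicates 4 and 5, and the latter pair was nearest to the KO libraries. The means of 93.6 ± 42.4 CPM and 27.5 ± 6.01 CPM (SD, n = 4 each) gave a log2 fold change of -1.77 (SE 0.32), and 281 of the genes tested had a lower one. In the 6 libraries numbered 3, 4 and 5 the estimate was -1.48 with the replicate block, which did not pass the log2 fold change threshold, and -1.52 without it, which did not pass the adjusted p-value threshold. In the fits without 1 library it ranged from -1.95 to -1.47, and both thresholds were passed in 3 of 8, not without floxed replicate 1 or without any one of KO replicates 2, 3, 4 and 5. The counts over all genes in these fits are those given for Olfm4.

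Chil3 encodes Ym1, a chitinase-like protein without chitinase activity that is also made by alternatively activated macrophages. Chil3 (ENSMUSG00000040809) lies on chromosome 3 (minus strand) from 106147554 to 106167564. It had 1735, 988.3, 1353 and 1222 CPM in floxed and 1249, 1258, 802.1 and 820.1 CPM in KO libraries. The groups overlapped, KO replicates 2 and 3 being above floxed replicates 3 and 5. The floxed mean was 1325 ± 313 and the KO mean 1032 ± 255 CPM (SD, n = 4 each), with a log2 fold change of -0.36 (SE 0.26). Of its 50-base stretches 29.4% occur in another gene, 18.5% in Chil4, so reads there may belong to either gene, while 7 of the 10 genes shared none.

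Of the proteases, Mmp8 encodes neutrophil collagenase and Mmp9 encodes gelatinase B, the protein that gives gelatinase granules their name. Mmp8 (ENSMUSG00000005800, plus strand of chromosome 9 from 7558456 to 7568485) had 1476, 512.6, 1343 and 1086 CPM in floxed and 673.5, 739.2, 494.4 and 533.2 CPM in KO libraries. Floxed replicates 1, 4 and 5 were above every KO library and floxed replicate 3 fell among them. The floxed mean of Mmp8 was 1104 ± 426 and the KO mean 610 ± 115 CPM (SD, n = 4 each), with a log2 fold change of -0.86 (SE 0.32). Mmp9 (ENSMUSG00000017737, plus strand of chromosome 2 from 164940780 to 164955850) had 1832, 779.7, 2172 and 2552 CPM in floxed and 1042, 996.6, 1391 and 1422 CPM in KO libraries. For Mmp9, floxed replicate 3 was below all KO libraries. The floxed mean of Mmp9 was 1834 ± 762 and the KO mean 1213 ± 225 CPM (SD, n = 4 each), with a log2 fold change of -0.60 (SE 0.35).

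Cd177 encodes a neutrophil surface protein that is also held on the membrane of specific granules. Cd177 (ENSMUSG00000052212) lies on chromosome 7 (minus strand) from 24743983 to 24760311. It had 1330, 518.1, 1362 and 1488 CPM in floxed and 759.7, 748.8, 918.3 and 910.4 CPM in KO libraries. Again floxed replicate 3 was the lowest of the 8 and the other floxed libraries the highest 3. The floxed mean was 1175 ± 443 and the KO mean 834 ± 92.6 CPM (SD, n = 4 each), with a log2 fold change of -0.49 (SE 0.31).

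**Figure D1:**
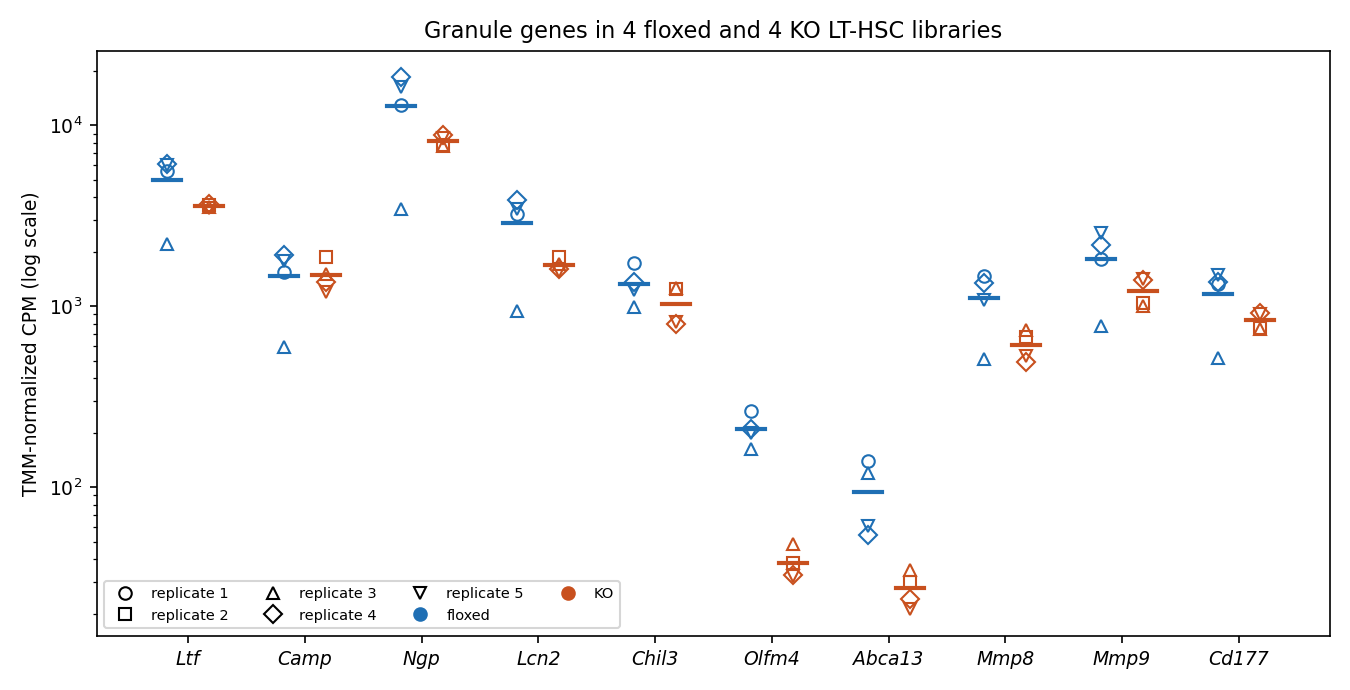
Each point is the TMM-normalized CPM of one library (log axis) for the 10 granule genes, floxed in blue and KO in orange, with the shape giving the replicate number and the bar the mean of the 4 libraries. Floxed replicate 3 is the lowest floxed library for each gene except Abca13, and for Olfm4 and Abca13 it lies above all KO libraries.

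Per kilobase of spliced transcript, the levels of the 10 genes spanned a wide range in both genotypes. In floxed libraries Ngp was highest, with a mean of 10455 CPM per kilobase, followed by Lcn2 (3136), Camp (1927), Ltf (1819) and Chil3 (861). Mmp9 (578), Mmp8 (455) and Cd177 (433) came next, and Olfm4 (74.6) and Abca13 (5.84) were lowest. In KO libraries Ngp was again highest (6714 CPM per kilobase) and Olfm4 (13.5) and Abca13 (1.72) lowest. There Camp (1964) stood before Lcn2 (1851) and Ltf (1305). The neighbours Camp and Ltf in floxed, and Camp and Lcn2 in KO mice, differed by less than the spread between libraries. Reads in introns are included in the counts, so these levels are approximate for genes with long introns such as Abca13, where 16011 spliced bases lie in a span of 492318.

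As a group, the 10 genes took 3.30%, 1.21%, 3.70% and 3.43% of all gene counts in the floxed libraries, and 1.89%, 1.90%, 1.67% and 1.55% in the KO libraries. The KO shares were close together and lay between floxed replicate 3 and the other floxed libraries. The mean share was 2.91% ± 1.14 (SD, n = 4) in floxed and 1.75% ± 0.171 (SD, n = 4) in KO mice. Haemoglobin genes took 2.85% to 7.67% of the counts in floxed and 12.2% to 24.3% in KO libraries, and with them left out the granule shares were 3.40%, 1.31%, 3.89% and 3.61% in floxed and 2.20%, 2.17%, 2.11% and 2.05% in KO mice. Ngp alone made up 33.5% to 50.1% of the granule gene counts in floxed and 41.0% to 46.3% in KO libraries.

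Counts of one granule gene were also taken as a share of another in the same library, which needs no scaling. The genes were chosen with the difference between genotypes known, and no share over all genes stands beside these ratios. They are a description only. The Olfm4 count was 4.72%, 7.36%, 3.45% and 3.28% of the Ltf count in the floxed libraries and 1.05%, 1.37%, 0.894% and 0.923% in the KO libraries. These shares did not overlap. The Abca13 count was 2.49%, 5.38%, 0.887% and 1.01% of the Ltf count in floxed and 0.828%, 0.977%, 0.662% and 0.606% in KO libraries. Here floxed replicates 4 and 5 were near the KO libraries, with floxed replicate 4 below KO replicate 3. Camp as a share of Ngp was 11.9%, 17.3%, 10.4% and 11.0% in floxed and 24.3%, 19.6%, 15.4% and 14.1% in KO libraries, so the groups overlapped through floxed replicate 3. Mmp8 as a share of Mmp9 ranged from 42.6% to 80.6% in floxed and from 35.5% to 74.2% in KO libraries and overlapped throughout.

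**Figure D2:**
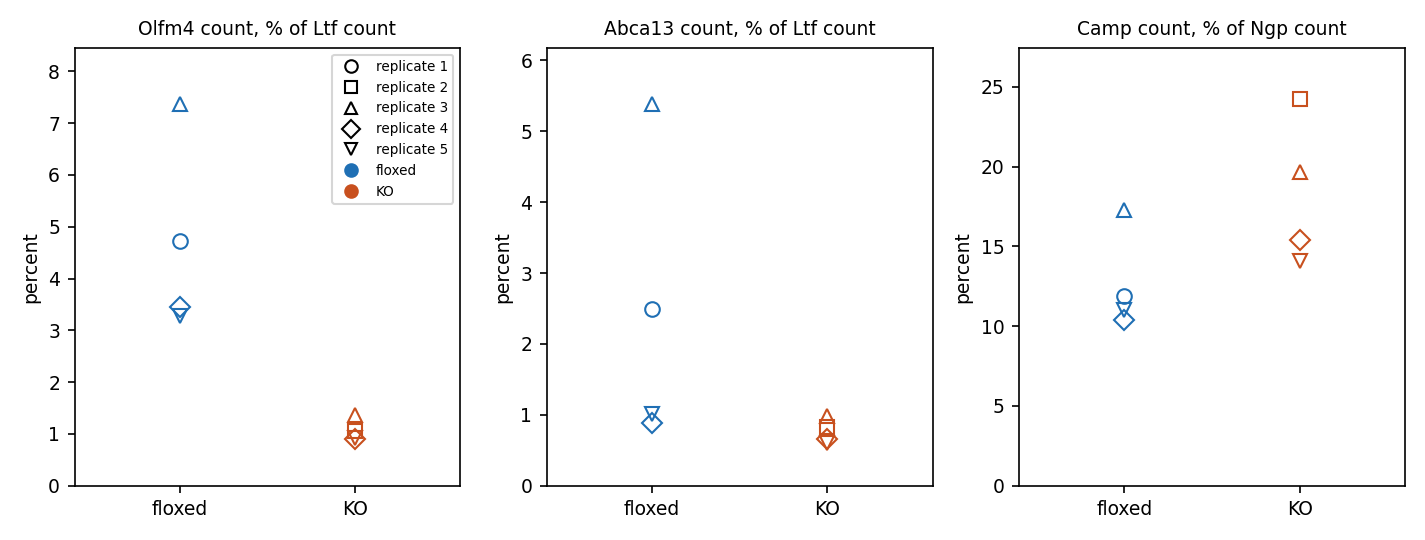
Counts of 1 granule gene as a percentage of another in the same library, with floxed and KO libraries side by side and the shape giving the replicate number. Olfm4 is at 3.28% to 7.36% of Ltf in floxed and at 0.894% to 1.37% in KO libraries, while the other panels overlap.

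Leaving out floxed replicate 3 changed the picture for most of the list. Without it, 8 of the 10 genes had all KO values below the 3 floxed values and were under an adjusted p-value of 0.05 in edgeR's fit, the exceptions being Camp and Chil3. In that fit 8.64% of all 22094 genes tested were lower at an adjusted p-value under 0.05, 15.2% had all KO values below the floxed values, and 15.1% had them all above. The log2 fold change became -0.71 for Ltf, -0.22 for Camp, -0.94 for Ngp, -1.04 for Lcn2 and -0.46 for Chil3. For the proteases and the surface protein it became -1.08 (Mmp8), -0.84 (Mmp9) and -0.73 (Cd177). Olfm4 (-2.56) and Abca13 (-1.61) were little changed, and they stayed the 2 genes past both thresholds, which 3.88% of the genes tested passed in that fit. The median over the 10 was -0.89 without floxed replicate 3, against 0.04 over all genes, and these values too are a description.

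**Figure D3:**
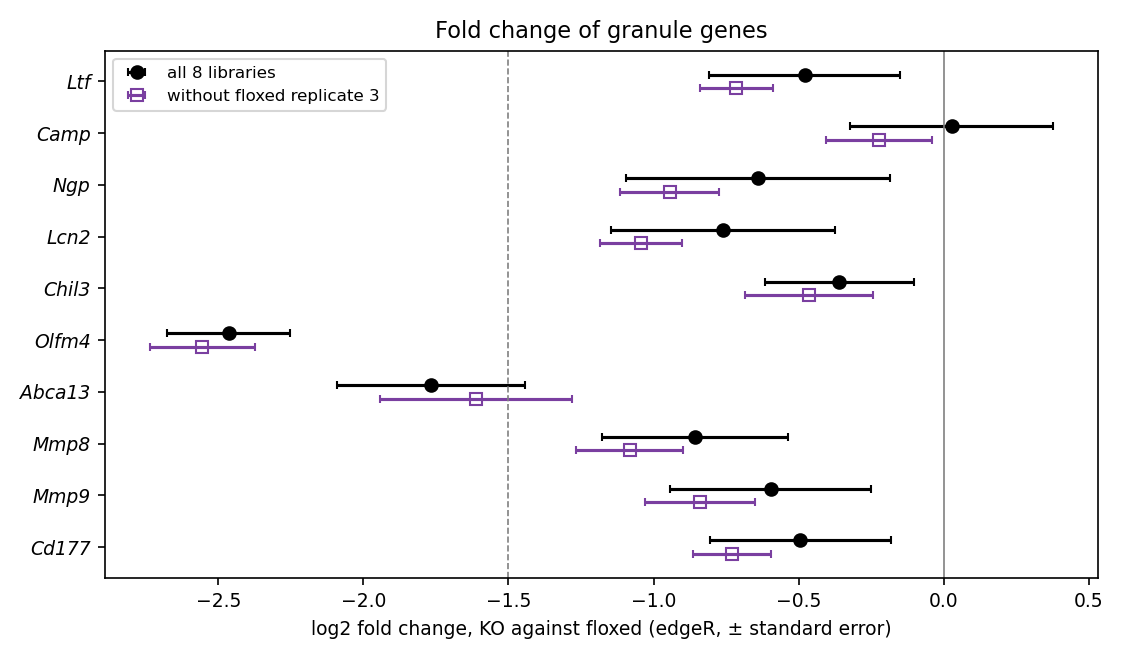
The log2 fold change of each granule gene, KO against floxed, with its standard error from edgeR, from all 8 libraries (filled circles) and without floxed replicate 3 (open squares). Olfm4 and Abca13 lie beyond the dashed line at -1.5 in both fits, and the other 8 lie between 0.03 and -1.08.

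The libraries also fell into replicate numbers 1 to 3 and replicate numbers 4 and 5, a grouping that was seen in the counts and that the labels do not name. The differences between genotypes were therefore taken within each grouping, on log2(CPM + 1). Within numbers 1 to 3, the KO mean less the floxed mean was 0.03 for Ltf, 0.81 for Camp, 0.21 for Ngp, 0.04 for Lcn2 and -0.06 for Chil3. It was -0.30 for Mmp8, -0.23 for Mmp9 and -0.14 for Cd177, but -2.25 for Olfm4 and -1.97 for Abca13. Of the 10 genes 6 were lower in KO there, with a median of -0.10 over the 10, and this grouping holds floxed replicate 3. Within numbers 4 and 5 all 10 genes were lower, with a median of -0.88, from -0.53 for Camp to -1.31 for Abca13 and -2.62 for Olfm4. In the pair of libraries with number 3, the 8 genes other than Olfm4 (-1.73) and Abca13 (-1.75) were higher in KO, by 0.35 to 1.34, while in the pairs with numbers 4 and 5 all 10 were lower.

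Since several annotated transcripts of a gene were counted on their own, the counts also tell how reads lay along a gene. The 7 granule genes with more than 1 transcript had 26 shorter transcripts, whose counts were taken as shares of the count of the gene. For 21 of the 26, the shares of replicate numbers 1 to 3 and of numbers 4 and 5 overlapped, 4 were higher in every library of numbers 1 to 3 and 1 was higher in every library of numbers 4 and 5. Over the shorter transcripts of all genes tested, 18.9% of 68095 did not overlap in this way, so such splits are not particular to granule genes. The transcripts described next are examples. Lcn2-205, a retained intron transcript on chromosome 2 from 32385183 to 32386107, had 30.4%, 31.1%, 9.28% and 9.57% of the Lcn2 count in the floxed libraries. The KO libraries had 28.6%, 29.7%, 11.0% and 10.4%, so the shares of numbers 1 to 3 and of numbers 4 and 5 did not overlap, while those of the genotypes did. Ltf-206, a retained intron transcript of Ltf, had 1.82% to 2.24% of the Ltf count in numbers 1 to 3 and 0.206% to 0.347% in numbers 4 and 5. Chil3-203, near the end of Chil3, went the other way, with 21.7% to 25.3% in numbers 1 to 3 and 32.7% to 36.3% in numbers 4 and 5.

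By genotype, 1 of the 26 shares did not overlap, while 7.32% of those of all genes tested did not. The lower level of Olfm4 in KO libraries was present on all 3 of its transcripts. These overlap and can count the same reads, so they are not separate observations. On Olfm4-201, whose start matches the promoter shown above, the mean was 108.1 CPM in floxed and 16.5 CPM in KO libraries, a log2 ratio of -2.71. On Olfm4-202 the means were 36.8 and 4.93 CPM, a log2 ratio of -2.90. The short transcripts at the start of Abca13 had few reads, 307 on Abca13-202 and 725 on Abca13-203 over the 8 libraries, with log2 ratios of -1.41 and -1.03 and overlapping groups.

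**Figure D4:**
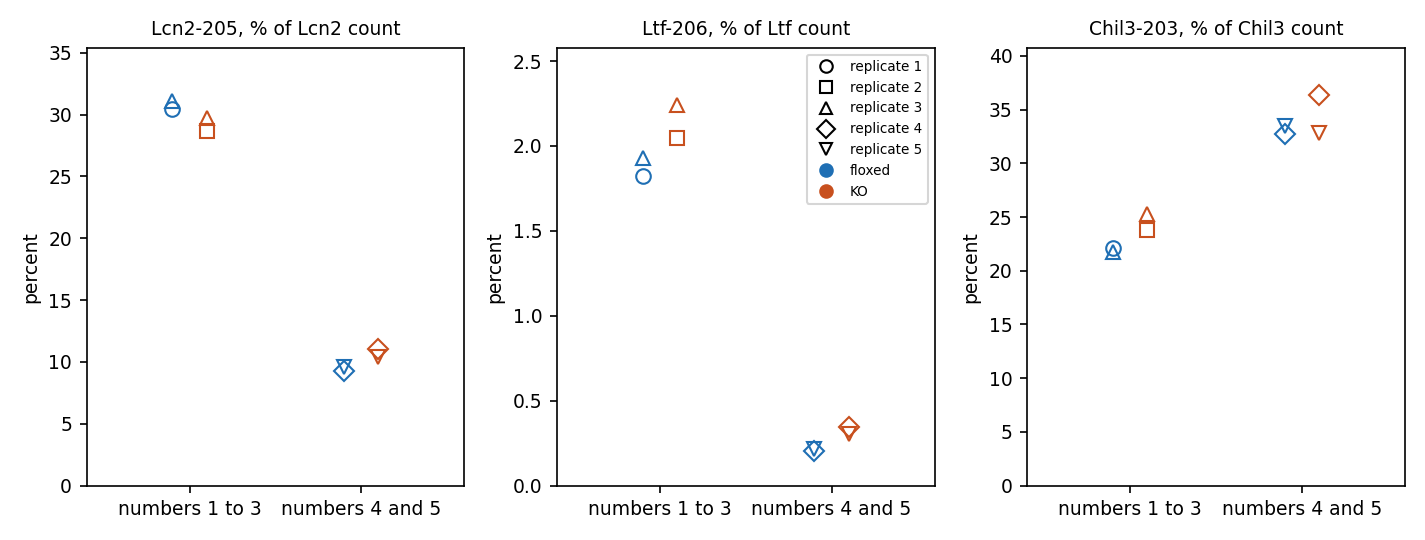
Counts of 3 shorter transcripts as a percentage of the count of their gene, one point per library, split by replicate number and coloured by genotype. Lcn2-205 and Ltf-206 are higher in numbers 1 to 3 and Chil3-203 is higher in numbers 4 and 5, in both genotypes.

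The other genes of granule biology were examined in lists, and these were tested. The lists, and the markers further below, were also chosen with earlier results of these data known. Their counts and p-values are therefore no independent support. Over the 5 lists, 57 of 60 distinct genes could be tested, and 1 of them, Tlr4, passed an adjusted p-value under 0.05, against 2.97% of all genes tested (1.75% lower and 1.22% higher). At an unadjusted p-value under 0.05 there were 20 of the 57 in edgeR's test, 18 of them lower, against 21.8% of all genes (12.1% lower). DESeq2 called 11 of the 57 at an adjusted p-value under 0.05, 9 lower and 2 higher, against 11.2% of all genes, and limma-voom called 1, against 2.21%. In the 6 libraries numbered 3, 4 and 5, edgeR with the replicate block called 0 of the 57, beside 0.222% of all genes, and 11 had an unadjusted p-value under 0.05, beside 18.2%. Without the block the same 6 libraries also gave 0 in edgeR's test (8 unadjusted), beside 0.111% of all genes. Of the other specific and gelatinase granule genes, 16 of 18 were tested, 0 passed in edgeR's test (5 at an unadjusted p-value under 0.05, 4 with DESeq2 and 0 with limma-voom) and 14 had a lower estimate, with a median log2 fold change of -0.51 and a range from -0.90 to 0.63. These include the oxidase subunits Cybb and Cyba, the integrin chains Itgam and Itgb2 and the lysozyme gene Lyz2.

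Primary granules are filled before the specific granules. Of 12 primary granule genes 11 were tested, 0 passed in edgeR's test (4 unadjusted, 0 with DESeq2 and 0 with limma-voom) and 10 had a lower estimate, with a median of -0.56. For Mpo, the myeloperoxidase gene, the floxed libraries had 1519 ± 619 CPM and the KO libraries 967.9 ± 131 CPM (SD, n = 4 each), and the log2 fold change was -0.65 (edgeR, adjusted p = 0.273). Elane, the neutrophil elastase gene, had 528.0 ± 259 CPM and 418.4 ± 74.7 CPM (log2 fold change -0.34, edgeR, adjusted p = 0.647). The median of this list was close to that of the specific and gelatinase granule genes, and a difference between the lists was not tested.

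Among 10 regulators of granule genes, all tested, 0 passed in edgeR's test (2 unadjusted, 2 with DESeq2 and 0 with limma-voom) and 9 had a lower estimate, with a median of -0.25. Cebpe, the gene of C/EBP-epsilon, had 159.1, 71.87, 263.2 and 312.6 CPM in floxed and 151.5, 113.5, 224.6 and 225.1 CPM in KO libraries. Its floxed values spread as widely as those of the granule genes and overlapped the KO values (log2 fold change -0.17, edgeR, adjusted p = 0.848). Cebpa, which encodes the factor that starts the granulocyte programme, had a log2 fold change of -0.27 (edgeR, adjusted p = 0.822). Gfi1, encoding a repressor needed for neutrophil maturation, had a log2 fold change of -0.55 (edgeR, adjusted p = 0.285).

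Partners, inhibitors and receptors of granule proteins numbered 10, of which 9 were tested. Tlr4, the receptor for bacterial lipopolysaccharide, was lower in KO libraries, with 53.32, 32.96, 33.72 and 35.33 CPM in floxed and 22.09, 21.53, 16.07 and 17.97 CPM in KO mice. The groups did not overlap, floxed replicate 1 was the highest by far, and the level was 49.99% lower in KO, at 38.8 ± 9.71 against 19.4 ± 2.88 CPM (SD, n = 4 each, adjusted p = 0.0348 by edgeR). Tlr4 passed with all 8 libraries and without floxed replicate 3, but not when any other library was left out, nor in the 6 libraries numbered 3, 4 and 5, with or without the replicate block. The other 8 did not pass in edgeR's test (3 of the 9 unadjusted), while DESeq2 called 2 of the 9, 1 lower and 1 higher, and limma-voom called 1. A lower estimate was seen in 6 of the 9.

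The list called late neutrophil genes held 15 genes, and the stage of the cells that carry them was not tested. All 15 were tested, 0 passed in edgeR's test (10 unadjusted, 5 with DESeq2 and 0 with limma-voom) and 15 had a lower estimate, with a median of -0.63, the lowest of the 5 lists. S100a8 and S100a9, which encode calprotectin, had log2 fold changes of -0.60 and -0.55 (edgeR, adjusted p = 0.360 and 0.440). Ly6g, the surface marker of mouse neutrophils, averaged 203.5 ± 42.9 CPM in floxed libraries against 131.2 ± 4.47 CPM in KO libraries (SD, n = 4 each, log2 fold change -0.63, edgeR, adjusted p = 0.0824). Without floxed replicate 3, 29 of the 57 genes over all lists were lower and 2 higher at an adjusted p-value under 0.05 in edgeR's fit. Of all genes, 8.64% were lower and 8.9% higher. That library was singled out because it was low in genes of this kind, S100a9 among them. These counts are therefore a description and support nothing. The 2 higher genes, named after their values were seen, were Stom, encoding stomatin (0.82), and Timp3, encoding a metalloproteinase inhibitor (1.91).

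**Figure D5:**
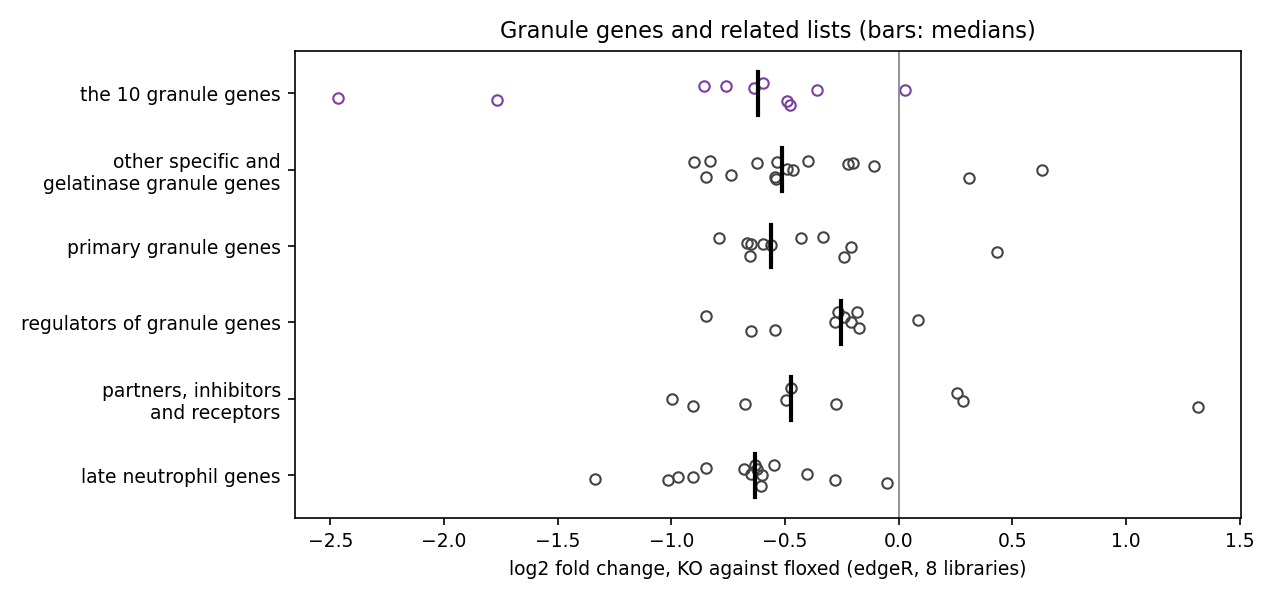
The log2 fold change, KO against floxed, of each tested gene (points) in the 10 granule genes and 5 related lists, with the median of each list as a bar. The medians lie between -0.25 and -0.63, and Olfm4 and Abca13 are the leftmost points of the first row.

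Markers of other cells moved with the genotypes as well, and their part in the values above was not tested. The summed neutrophil markers had 10891 to 25902 CPM in floxed and 11163 to 18647 CPM in KO libraries, and 0 of 9 passed an adjusted p-value under 0.05 in edgeR's test (4 unadjusted, 3 with DESeq2 and 0 with limma-voom). The lowest of these 8 sums was in floxed replicate 3. The summed erythroid markers had 18011 to 46759 CPM in floxed and 80044 to 190002 CPM in KO libraries, and 2 of the 9 found passed, Klf1 and Hba-a1, both higher. Of 7 megakaryocyte markers 6 were higher in KO mice, with summed levels of 35.6 to 89.6 CPM in floxed and 186 to 196 CPM in KO libraries. Eosinophil and basophil markers summed to 769 to 1106 CPM and 1873 to 2183 CPM, with Prg2 and Gata1, 2 of 6, higher. Most of these sums was Prg2, at a mean of 626 CPM in floxed against 1476 CPM in KO libraries, while Mcpt8 (57.2 and 32.3 CPM) and Cpa3 (13.5 and 8.07 CPM) did not pass, and Gata1 is also an erythroid and megakaryocyte gene. In the 6 libraries numbered 3, 4 and 5 with the replicate block, 1 of the megakaryocyte markers passed, and 0 of the erythroid and 0 of the eosinophil and basophil markers did, with 7 and 2 at an unadjusted p-value under 0.05 in edgeR's test.

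Monocyte and macrophage markers summed to 626 to 1700 CPM in floxed and 965 to 1055 CPM in KO libraries, with 1 of 9, C1qa, higher. B cell markers summed to 285.9 to 548 CPM and 501 to 545 CPM with 2 of 7, Cd79a and Vpreb1, higher, T cell markers to 32.4 to 48.2 CPM and 30.8 to 32.9 CPM with 0 of 6 past the threshold in edgeR's test (1 unadjusted, 0 with DESeq2 and 0 with limma-voom), and stem cell markers to 147 to 182 CPM and 148 to 178 CPM. No marker of the lists of other cell types was lower at that threshold in edgeR's fit of all 8 libraries, and none that was found was at 0 in all 8 libraries. A Lin- gate would remove cells that carry lineage antigens on their surface.

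The genes whose pattern over the 8 libraries was nearest to the mean pattern of the 10 granule genes were then found among 11220 other genes with a mean of at least 10 CPM. Likeness was measured as the root mean square difference between profiles of log2(CPM + 1), each less its own mean. The nearest was Mtus1, encoding a microtubule-associated protein, at 0.05, and then App (0.057), encoding the amyloid precursor protein, and Reck (0.061), encoding a membrane-anchored protease inhibitor. Papss2, Ctbp2, 4 genes of the Ugt1a cluster that share exons and therefore reads (Ugt1a7c, Ugt1a10, Ugt1a8 and Ugt1a9) and Hsd11b1 (0.081) completed the 10, and the median over all candidates was 0.585. Of the granule genes themselves, Mmp8 was nearest to the mean pattern (0.153), and Olfm4 (0.892) and Abca13 (0.799) were farthest from it.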

How the data were processed

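Reads passed FastQC and Trim Galore, were mapped to GRCm38/mm10 transcripts using Bowtie2, and the authors deposited whole-number counts for 138930 Ensembl transcripts per library, without normalization. The counting tool, its use of strand and the annotation release are not given in the sources used here. The deposited values were checked to be whole-number counts in all 8 files (7 are tab-separated under a comma-separated name, so their unit was recorded as another one).

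Genes were taken from GENCODE M21, which holds 138789 of these transcripts. Of 2468 pairs of transcripts of 1 gene with the same ends but other exons, 2462 had the same count in all 8 libraries, and a gene with another gene inside its intron had at least that gene's count in all 8, in 1104 of 1104 cases on the same strand and 1250 of 1250 on the other. Counts were therefore taken to cover introns and both strands and to be shared by overlapping and antisense genes. The count of a gene is that of the transcript whose total was highest. Gene counts (23412829 to 44874882 per library) passed filterByExpr (grouped by genotype) and TMM scaling, and the quasi-likelihood test of edgeR 4.0.16 in R 4.3.3 was run, adjusting p-values over all 21902 genes after Benjamini and Hochberg, at an adjusted p-value under 0.05 and, for genes called, an absolute log2 fold change above 1.5. An offset of 1 was added before log2 of CPM. The fits, with DESeq2 1.42.0 and limma 3.58.1 (voom) as alternatives, were tested on simulated data. Other steps used Python 3.11.15.

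The granule genes, the other lists and the markers were chosen with earlier results of these data known. The genes named were all 10 granule genes, genes of the other lists with an adjusted p-value under 0.05 (at most 6 a list), Cebpe, Cebpa, Gfi1, Elane, Mpo, S100a8, S100a9 and Ly6g whatever their values, Ociad1, and the 10 genes nearest to the mean profile. Cybb, Cyba, Itgam, Itgb2 and Lyz2 were named as examples of their list, and single markers beside their counts. The test results of the stem cell markers are not reported here.

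Replicate numbers in the labels occur in both genotypes for 3, 4 and 5, in different mice. Deviations from the genotype mean went together in libraries of the same number (correlations across genes of 0.427, 0.454 and 0.707), but libraries with other numbers within 1 to 3 or within 4 and 5 did so too (0.359 to 0.711). Those across these groupings deviated in opposite directions (-0.726 to -0.380). Deviations within a genotype cancel out for each gene, so the opposite directions follow from the positive correlations and are no further observation. The fit without a block is reported, and the fit with the replicate number as a block, which leaves out floxed replicate 1 and KO replicate 2, beside it where it changed a call. The same 6 libraries without the block were added after seeing the data. The alternatives were other normalizations, filters and tests, another way to combine transcripts, leaving out haemoglobin and immunoglobulin genes or overlapping genes, 2 blocks and leaving out each library.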

Additional observations from a re-analysis of the deposited data

Results flagged for a closer look

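Of 62 sets of 4 libraries examined, each holding a gene or share in one genotype, 6 had a library well apart from the rest. In 5 of the 6 it was floxed replicate 3. About 3.1 (1 in 20) would arise by chance if the sets were independent. They were not, since many hold related genes, or shares of them, in the same libraries, so nothing is read from the excess. On log2(CPM + 1), floxed replicate 3 had 11.11 for Ltf (the other floxed libraries 12.45 to 12.58), 9.872 for Lcn2 (11.66 to 11.91) and 9.02 for Cd177 (10.38 to 10.54). S100a9, of the list called late neutrophil genes, had 12.21 there (13.47 to 13.68). The 10 granule genes together took 1.209% of gene counts in this library, against 3.304% to 3.696% in the other floxed libraries. By the same measure, the other granule genes, Camp, Ngp, Chil3, Mmp8, Mmp9, Olfm4 and Abca13, did not stand apart in it. The remaining one was Tlr4, with 5.763 in floxed replicate 1 and 5.086 to 5.183 in the other floxed libraries.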

How the results depend on the processing

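Over 19 alternatives, the 189 values of single granule genes that could be recomputed moved by less than 1 SD between libraries. That SD is wide, 0.79 on log2 for Ngp against an estimate of -0.64, and the fits share most libraries. Staying within it therefore says little about stability. The differences of single genes within numbers 1 to 3, such as 0.03 for Ltf against -0.48 with all libraries, are not among the 189. Camp was lower, not higher, in KO without scaling, without floxed replicate 3, without KO replicate 2 and in the 6 libraries numbered 3, 4 and 5 without a block. Library totals without scaling put the median of all genes at -0.20. Across all genes 261 passed both thresholds (99 higher, 162 lower), against 503 with DESeq2 and 521 with a block for numbers 4 and 5. The split between higher and lower was 60 and 253 without scaling, 113 and 73 with limma-voom, 92 and 97 without haemoglobin and immunoglobulin genes and 545 and 312 without floxed replicate 3. Leaving out 1 library gave 51 genes (without floxed replicate 1) to 857 (without floxed replicate 3), and 52 to 78 without floxed replicate 5 or any KO library. Of the genes in the 5 other lists, 1 passed with all libraries (2.97% of all genes), 9 without scaling (4.15%), 2 without the filter (1.92%), 2 with summed transcripts (2.79%), 11 with DESeq2 (11.2%), 11 with the block for numbers 4 and 5 (18.5%) and 0 to 31 with 1 library left out (31 without floxed replicate 3, beside 17.5% of all genes, and 0 in each other fit). With the replicate block, in the 6 libraries numbered 3, 4 and 5, 44 genes passed both thresholds and 0 of the other lists passed an adjusted p-value under 0.05 in edgeR's test (11 unadjusted). The same 6 libraries without the block, an alternative chosen after seeing the data, gave 23 and 0 (8 unadjusted), and Abca13 did not pass both in either fit. The median over the granule genes was -0.62 with all libraries, -0.10 within numbers 1 to 3 and -0.88 within numbers 4 and 5. Olfm4 passed both thresholds in 18 of 19 alternatives, being untested when overlapping genes were left out, and Abca13 in 12. The cause of these shifts was not tested. The lowest count of a granule gene in a library was 584.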
